A study of Mus musculus with 4 samples.

Results

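The genes described here make sterols and fatty acids in mouse cells. They are 33 of the 31053 gene IDs counted in CD4 T cells from the lamina propria of the mouse small intestine, and were taken by name: 20 genes of the sterol route, 10 of the fatty acid route and 3 regulators (Insig1, Srebf1 and Srebf2). The cells came from wild-type C57Bl/6 mice and had been sorted as living CD45+CD3+CD4+ cells. The series holds 4 libraries of a single group with no treatment, genotype or time point to compare, so subsets of cells were compared within the same libraries. Per the labels, 4 mice were used, but no label ties a library to exactly 1 animal. Library was a block in the main fits, so p-values there measure how differences between subsets vary over libraries.

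Cells make cholesterol from acetyl-CoA through mevalonate, squalene and lanosterol, and make fatty acids from the same precursor through malonyl-CoA. When membrane sterols run low, the SREBP factors encoded by Srebf1 and Srebf2 leave the endoplasmic reticulum and switch on the genes of both routes. INSIG1 holds them back when sterols are plentiful, and its own gene is a target of these factors. T cells draw on both routes when they grow and divide, and intermediates of the sterol route also anchor signalling proteins in membranes and include ligands of the Th17 factor RORγt.

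Cells were placed in the first of 6 gates whose gene they carried. The gates were Foxp3 (at least 1 UMI, the lineage factor of regulatory T cells), Il17a (at least 1), Ifng (at least 1), Il2 (at least 1), Gzma (at least 10) and the rest, with 1535, 586, 6599, 1949, 1691 and 9141 cells. Of these, 600 of the Foxp3 gate, 102 of the Il17a gate, 2766 of the Ifng gate and 1415 of the Il2 gate had exactly 1 UMI of the gate's gene. Marker lists were read without the gate's own gene. The 4 other regulatory T cell markers (Il2ra, Ctla4, Ikzf2 and Tnfrsf18) summed to 3549 ± 396 CPM in the Foxp3 gate, 1971 ± 161 CPM in the Il17a gate and 1999 ± 328 CPM in the Gzma gate, against 1206 ± 156 CPM in the rest (CPM, UMIs per 1000000 UMIs of that gate in that library; mean ± SD, n = 4 libraries throughout). The 5 other Th17 markers summed to 1980 ± 637 CPM in the Il17a gate and the 3 other Th1 markers to 731 ± 33.01 CPM in the Ifng gate, against 286 ± 65.6 and 442 ± 33.6 CPM in the rest. The 5 cytotoxic markers beside Gzma were not confined to the Gzma gate: they summed to 5051 ± 525 CPM there, 2741 ± 327 CPM in the Ifng gate and 2007 ± 191 CPM in the Foxp3 gate, against 1113 ± 95.4 CPM in the rest. The 4 T cell markers, Cd4 included, were found in every gate. The 5 B cell and plasma cell markers were uneven, summing to 121 to 640 CPM over the libraries of the rest. They summed to 8.42 to 836 CPM in the Foxp3 gate, 6.18 to 496 CPM in the Ifng gate and 1.65 to 848 CPM in the Il2 gate. In the rest and in each of these gates only 1 of the 5 markers reached a mean of 20 CPM. In the Il17a and Gzma gates the 5 markers summed to only 2.54 to 11.9 and 1.68 to 4.21 CPM. The libraries held 23918884 to 28783972 UMIs, 21501 cells were analysed, and pairs of libraries shared 34 to 55 cell barcodes. Gates differed in depth and in cell division. Their median UMIs per cell were 4483, 5215.5, 3964, 3977, 3554 and 3697 in the order above, and cells with cycling markers made up 10.2%, 24.04%, 9.02%, 5.63%, 10.0% and 5.73%.

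Of the 33 genes, 31 had enough UMIs to be tested. The exceptions were the desaturases Scd1, with 2 UMIs in all cells together, and Fads2, which starts the synthesis of long polyunsaturated fatty acids, with 25. Each of the others had between 671 and 12165 UMIs. Summed over its 20 genes, the sterol route stood at 766 ± 105 CPM in the Foxp3 gate, 887 ± 76.4 in the Il17a gate, 939 ± 125 in the Ifng gate, 844 ± 70.4 in the Il2 gate, 944 ± 122 in the Gzma gate and 814 ± 87.7 in the rest. Gates overlapped in these sums because the libraries differed: library 2 was highest and library 4 lowest in every gate. Within a library the order was steadier. The Ifng gate stood at 1.13, 1.22, 1.10 and 1.16 times the rest in libraries 1 to 4, and the Gzma gate at 1.16, 1.21, 1.12 and 1.14 times. The Il17a gate was at 1.12, 1.06, 1.09 and 1.10 times the rest, and the Foxp3 gate at 1.01, 0.979, 0.882 and 0.888 times. The fatty acid route stood at 309 ± 39.6 CPM in the Foxp3 gate, 278 ± 24.1 in the Il17a gate, 285 ± 12.8 in the Ifng gate, 281 ± 19.6 in the Il2 gate, 306 ± 21.2 in the Gzma gate and 276 ± 16.1 in the rest. The fatty acid sum was above the rest in 4 of 4 libraries in the Foxp3 gate (1.17, 1.21, 1.07 and 1.03 times) and in the Gzma gate (1.15, 1.12, 1.04 and 1.12 times). Single elongases weighed heavily in it. Elovl5 had a mean of 102 CPM in the Foxp3 gate and 80.1 CPM in the rest, and Elovl6 42.1 CPM in the Gzma gate and 21.0 CPM in the rest. Acly, Acaca and Fasn had 70.2, 9.82 and 19.8 CPM in the Foxp3 gate and 68.1, 8.12 and 18.7 CPM in the Gzma gate. In the rest they had 66.2, 8.80 and 18.5 CPM. The sums of both routes were given no test.

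**Figure D1:**
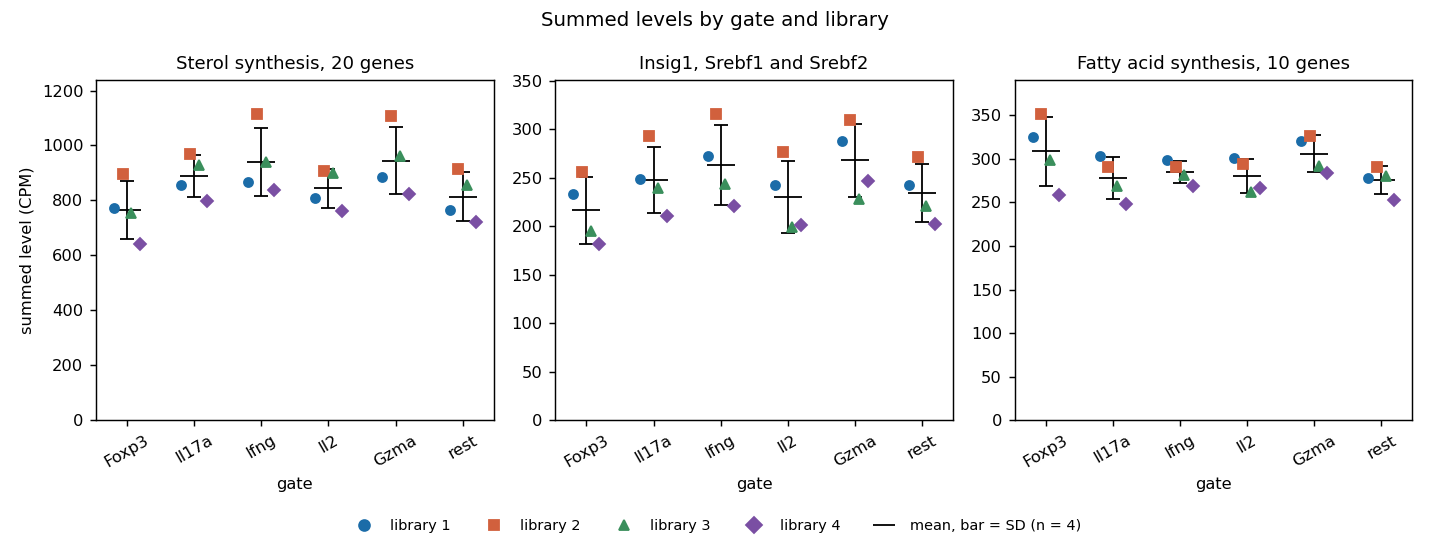
Summed levels in CPM (vertical axis) of the sterol genes, the 3 regulators and the fatty acid genes in each gate (horizontal axis). Points are libraries and bars are mean ± SD over 4 libraries; within a library, the Ifng and Gzma gates lie above the rest for the sterol genes, and the Foxp3 and Gzma gates lie above it for the fatty acid genes.

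The SREBP target Insig1 showed the widest difference between libraries among the regulators. Over all cells of a library it stood at 112, 127, 80.1 and 66.3 CPM in libraries 1 to 4, against 122, 135, 122 and 121 CPM for Srebf2 and 21.3, 25.2, 22.5 and 23.1 CPM for Srebf1. Libraries 3 and 4 were lower in Insig1 than libraries 1 and 2 in every gate, while their Srebf2 level over all cells stayed near that of library 1.

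Promoter sequences are shown for 2 sets of these genes, to let the reader see which elements stand before them. The first set holds the genes with the smallest adjusted p across the gates among those listed in the promoter table (RefSeq, GRCm38.p6; 250 bases before to 50 after the start). The second holds Insig1 and the 4 genes that were higher in cells with an Insig1 UMI, chosen after their values were seen. Capitals mark CCAAT, the box bound by NF-Y, a partner of the SREBP factors, on either strand (so ATTGG as well), and in Hmgcs1 also the sterol regulatory element TCACCCCAC.
Ebp: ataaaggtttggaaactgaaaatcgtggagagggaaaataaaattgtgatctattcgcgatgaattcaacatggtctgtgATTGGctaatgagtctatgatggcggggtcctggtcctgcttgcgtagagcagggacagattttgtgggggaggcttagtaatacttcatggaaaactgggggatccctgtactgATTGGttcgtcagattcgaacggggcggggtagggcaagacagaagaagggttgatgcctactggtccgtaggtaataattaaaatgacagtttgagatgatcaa
Pmvk: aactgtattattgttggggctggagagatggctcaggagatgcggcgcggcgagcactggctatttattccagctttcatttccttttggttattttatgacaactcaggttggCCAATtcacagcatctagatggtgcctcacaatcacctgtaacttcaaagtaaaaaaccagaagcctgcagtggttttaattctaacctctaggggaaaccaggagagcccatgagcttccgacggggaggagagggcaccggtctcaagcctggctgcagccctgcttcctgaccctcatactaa
Elovl5: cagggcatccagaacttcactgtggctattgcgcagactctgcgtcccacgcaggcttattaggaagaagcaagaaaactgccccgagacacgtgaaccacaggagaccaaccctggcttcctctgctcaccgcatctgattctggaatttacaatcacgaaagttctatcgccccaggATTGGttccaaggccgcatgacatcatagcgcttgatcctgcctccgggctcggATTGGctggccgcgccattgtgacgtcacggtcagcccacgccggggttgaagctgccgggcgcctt
Elovl6: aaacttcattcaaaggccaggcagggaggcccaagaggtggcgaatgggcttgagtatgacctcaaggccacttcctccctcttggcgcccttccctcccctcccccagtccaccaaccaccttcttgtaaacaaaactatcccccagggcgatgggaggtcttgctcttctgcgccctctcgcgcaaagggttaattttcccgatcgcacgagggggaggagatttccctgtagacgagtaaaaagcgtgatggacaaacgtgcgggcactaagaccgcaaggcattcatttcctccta
Insig1: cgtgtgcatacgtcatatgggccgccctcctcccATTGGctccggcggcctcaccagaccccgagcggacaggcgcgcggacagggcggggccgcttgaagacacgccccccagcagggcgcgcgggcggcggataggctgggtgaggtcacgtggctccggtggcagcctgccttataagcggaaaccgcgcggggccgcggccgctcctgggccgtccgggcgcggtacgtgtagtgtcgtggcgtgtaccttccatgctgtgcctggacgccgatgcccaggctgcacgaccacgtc
Hmgcs1: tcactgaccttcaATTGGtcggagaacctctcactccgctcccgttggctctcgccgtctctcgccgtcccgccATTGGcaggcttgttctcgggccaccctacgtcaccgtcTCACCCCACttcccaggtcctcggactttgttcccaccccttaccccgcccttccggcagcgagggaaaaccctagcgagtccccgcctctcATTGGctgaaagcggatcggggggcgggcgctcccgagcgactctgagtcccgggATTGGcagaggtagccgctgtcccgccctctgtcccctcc
Idi1: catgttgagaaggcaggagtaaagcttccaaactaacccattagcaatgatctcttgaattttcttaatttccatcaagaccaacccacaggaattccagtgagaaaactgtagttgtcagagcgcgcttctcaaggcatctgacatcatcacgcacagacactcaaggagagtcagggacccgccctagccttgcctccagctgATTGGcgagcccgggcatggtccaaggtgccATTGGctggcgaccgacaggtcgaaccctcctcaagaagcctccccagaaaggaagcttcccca
Cyp51: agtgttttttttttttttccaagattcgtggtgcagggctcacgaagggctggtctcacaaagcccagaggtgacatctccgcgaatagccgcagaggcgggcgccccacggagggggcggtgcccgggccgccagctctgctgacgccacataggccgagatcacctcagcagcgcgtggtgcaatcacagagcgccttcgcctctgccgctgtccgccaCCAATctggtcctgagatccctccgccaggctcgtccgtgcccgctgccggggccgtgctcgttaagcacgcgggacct
Msmo1: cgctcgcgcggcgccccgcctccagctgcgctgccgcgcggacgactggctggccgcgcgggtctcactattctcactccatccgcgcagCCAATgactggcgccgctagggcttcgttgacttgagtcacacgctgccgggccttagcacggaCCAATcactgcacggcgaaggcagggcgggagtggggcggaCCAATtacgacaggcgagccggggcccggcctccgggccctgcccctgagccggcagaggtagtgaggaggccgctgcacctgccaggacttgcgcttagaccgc

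These windows lie at chrX:8193463-8193762 on the minus strand (Ebp), chr3:89454291-89454590 on the plus strand (Pmvk, 1 of its 2 listed starts), chr9:77917115-77917414 on the plus strand (Elovl5), chr3:129532136-129532435 on the plus strand (Elovl6), chr5:28071162-28071461 on the plus strand (Insig1), chr13:119690101-119690400 on the plus strand (Hmgcs1), chr13:8885356-8885655 on the plus strand (Idi1), chr5:4104648-4104947 on the minus strand (Cyp51) and chr8:64733529-64733828 on the minus strand (Msmo1). Hmgcs1, the gene of the enzyme that makes HMG-CoA, had 4 CCAAT matches, the nearest upstream of its start 45 bases away, and its sterol element began 137 bases upstream. Msmo1 had 3 matches, Idi1, Ebp and Elovl5 had 2, Insig1, Cyp51 and Pmvk had 1, and Elovl6 had none. The promoter table held 26 of the 33 genes. CCAAT was found in 22 of them: 15 of 16 sterol genes, 3 of 3 regulators and 4 of 7 fatty acid genes. Among all genes tested, 43.3% had it. TCACNCCAC was found in 1 of the 26 (Hmgcs1), against 1.25% of genes tested. The GC box GGGCGG was found in 20 of the 26, against 70.5% of genes tested, and the E box CACGTG in 5, against 12.4%. All 4 motifs were searched on both strands, and a match is a description of letters and not of binding.

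Across the 6 gates, 21 of the 31 genes tested (67.7%) differed (F test over the gates, adjusted p under 0.05), with 51.3% of all 9625 genes tested called by the same rule. By route these were 17 of 20 sterol genes, 1 of 3 regulators (Srebf2) and 3 of 8 fatty acid genes (Elovl1, Elovl5 and Elovl6). The smallest adjusted p belonged to the sterol isomerase Ebp (adjusted p = 3.49e-06), the elongase Elovl6 (adjusted p = 1.12e-05), squalene synthase Fdft1 (adjusted p = 1.46e-05), farnesyl pyrophosphate synthase Fdps (adjusted p = 1.62e-05), phosphomevalonate kinase Pmvk (adjusted p = 2.93e-05) and the elongase Elovl5 (adjusted p = 0.000184). Genes at the entry to fatty acid synthesis did not pass the test: Acly, which makes cytosolic acetyl-CoA (adjusted p = 0.378), Acaca, which makes malonyl-CoA (adjusted p = 0.678), and the synthase Fasn (adjusted p = 0.589). Insig1 did not pass either (adjusted p = 0.113). The gates ranked differently for different genes. As examples, the mean level was highest in the Gzma gate for Idi1, Hmgcs1 and Elovl6, in the Ifng gate for Fdps and Fdft1, in the Il17a gate for Pmvk and Cyp51, and in the Foxp3 gate for Ebp and Elovl5. Several genes share bases with a neighbour on the opposite strand, among them Fdft1 with Ctsb, Cyp51 with Akap9, Ggps1 with Arid4b, Elovl1 with Cdc20, Srebf1 with Rai1, Hmgcs1 with Gm48342 and Idi1 with Gm48574. Others share bases with a neighbour on their own strand, among them Tm7sf2 with Vps51, Fdps with Gm43738 and Gm22935, Elovl6 with Gm43072 and Srebf2 with Gm49502 and Mir33. Acat2 has a close neighbouring copy, Acat3. How the counting treated such reads is not given in the sources used here, so these levels are less certain.

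**Figure D2:**
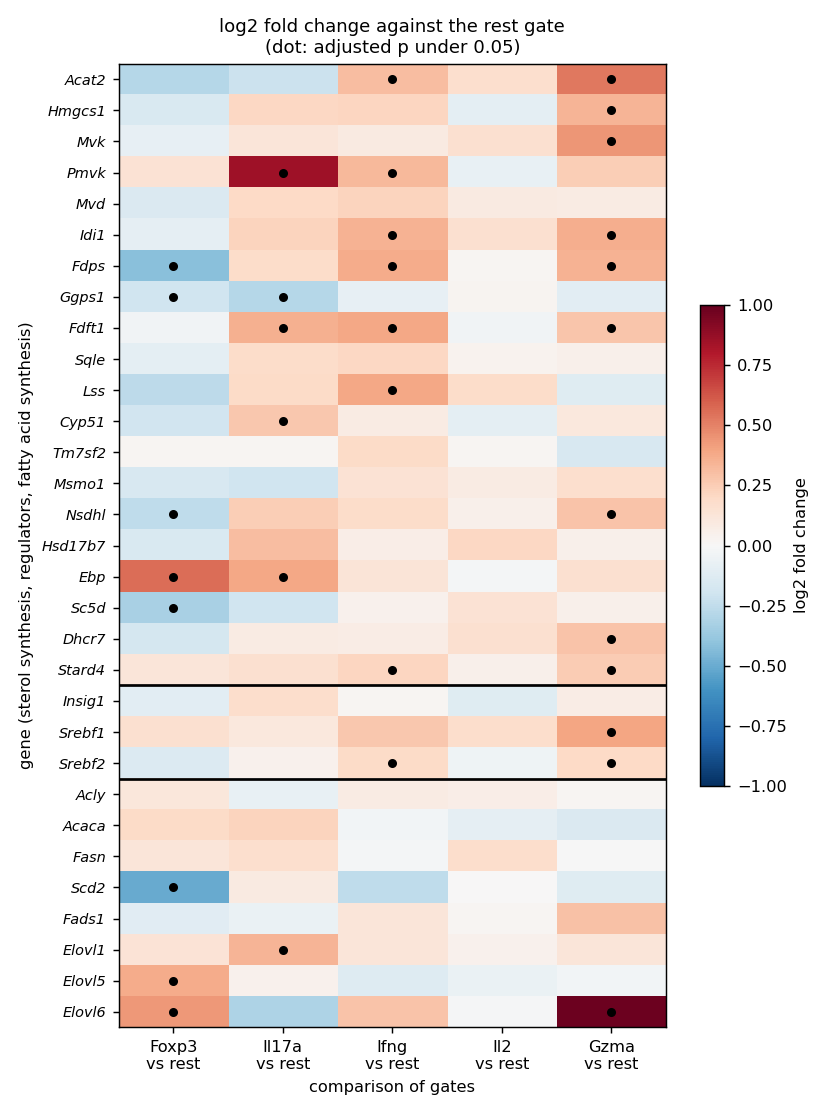
Log2 fold change of 31 genes (rows) in each gate against the rest (columns), from red (higher in the gate) to blue (lower), with a dot where the adjusted p was under 0.05. The Ifng and Gzma columns have dots only on red cells; the Foxp3 column has 3 on red and 5 on blue, and the Il2 column has none.

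The comparisons with the rest share the rest gate, and their values are given side by side without a test of one against another. In regulatory T cells marked by Foxp3, the sterol isomerase Ebp and 2 elongases were higher, and 4 other sterol genes were lower. Ebp, which shifts a double bond in the sterol ring, stood at 119, 115, 110.0 and 107 CPM in the Foxp3 gate of libraries 1 to 4, against 76.02, 78.4, 81.6 and 74.04 CPM in the rest, with no overlap (log2 fold change 0.56 ± 0.07, adjusted p = 8.33e-07). Against the rest, 8 of 31 genes (25.8%) differed, with 32.8% of all genes tested called. Of these, 3 were higher (Ebp, Elovl5 and Elovl6, where 17.5% of all genes were higher) and 5 lower (Fdps, Ggps1, Nsdhl, Sc5d and Scd2, where 15.3% were lower). In the main fit the genes of both routes were thus called no more often than genes in general for the higher direction (9.68%) and about as often for the lower (16.1%). Without cycling cells 12 genes were called, 4 higher and 8 lower, among 3127 calls over all genes, 54.9% of them higher. Cells of 3000 to 6000 UMIs gave 10 genes, 3 higher and 7 lower, among 2748 calls, 54.6% of them higher. The main fit had 3157 calls, 53.3% of them higher.

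Elovl5, which lengthens polyunsaturated fatty acids, had 107, 109, 106 and 86.7 CPM in the Foxp3 gate and 87.6, 80.96, 75.4 and 76.3 CPM in the rest. It was higher in every library, although library 4 of the Foxp3 gate lay below library 1 of the rest (log2 fold change 0.37 ± 0.08, adjusted p = 0.000359). Elovl6, which extends palmitate to stearate, had 30.8, 39.01, 21.8 and 18.99 CPM in the Foxp3 gate against 22.4, 22.1, 22.1 and 17.4 CPM in the rest (log2 fold change 0.43 ± 0.14, adjusted p = 0.0183). Libraries 1 and 2 carried that difference, and library 3 went the other way by a small margin. The desaturase Scd2 had 8.62, 10.5, 10.4 and 11.8 CPM in the Foxp3 gate, below all libraries of the rest at 12.9, 17.6, 15.4 and 12.9 CPM (log2 fold change -0.50 ± 0.16, adjusted p = 0.0186).

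On the sterol side, Fdps, which makes the farnesyl unit used for sterols and for protein anchors, had 24.6, 28.9, 23.8 and 21.6 CPM in the Foxp3 gate and 30.9, 38.7, 37.8 and 26.7 CPM in the rest. It was lower in 4 of 4 libraries (log2 fold change -0.42 ± 0.11, adjusted p = 0.00529). The sterol desaturase Sc5d had 47.6, 46.8, 43.6 and 40.03 CPM in the Foxp3 gate against 54.96, 62.8, 58.3 and 49.8 CPM in the rest, without overlap (log2 fold change -0.32 ± 0.08, adjusted p = 0.00173). Ggps1, which makes the geranylgeranyl anchor, and Nsdhl, a dehydrogenase of sterol demethylation, were lower with log2 fold changes of -0.20 and -0.25 (adjusted p = 0.0405 and 0.0435). The median log2 fold change was -0.15 over the 20 sterol genes and 0.13 over the 8 fatty acid genes tested, against -0.01 over all genes.

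Ebp, Elovl5, Sc5d and Fdps stayed below the threshold with each library left out. Elovl6 lost its call without library 1 or 2, Scd2 without library 1, 2 or 3, Ggps1 without library 1, 2 or 3 and Nsdhl without any 1 of the 4. In all, 5 genes were called without library 1 (Msmo1 among them) and 5 without library 3. The 6 epithelial markers summed to 73.9 to 104 CPM over the libraries of the Foxp3 gate and to 14.3 to 30.9 CPM in the rest. Nearly all of that was Epcam (91.8 CPM in the Foxp3 gate against 16.6 CPM in the rest), while Krt20 and Vil1 were at 0 in the Foxp3 gate. The 7 myeloid markers summed to 457 to 553 CPM in the Foxp3 gate and to 285 to 388 CPM in the rest, without overlap. All 7 had a UMI in both, but only 2 of them reached a mean of 20 CPM in either. With cells carrying 2 or more UMIs of other types' markers left out, which took away 51.6% of the Foxp3 gate, Ebp, Elovl5 and Sc5d kept their call. Elovl6, Fdps, Ggps1, Nsdhl and Scd2 kept their direction and lost it, while Dhcr7, Msmo1 and Srebf1 gained one. Calls over all genes were 2207 in that setting, against 3157. A shorter list without Cst3, Epcam, Pecam1 and Jchain, chosen after seeing the data, took away 1.01% of the Foxp3 gate. With it 6 of the 8 genes kept their call, while Ggps1 and Nsdhl lost it.

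In cells with Il17a, the cytokine of Th17 cells, 4 sterol genes and an elongase were higher and 1 sterol gene was lower, a share of the genes near or below that among all genes. Pmvk, which adds a further phosphate to mevalonate, stood at 48.97, 33, 53.3 and 46.2 CPM in the Il17a gate of libraries 1 to 4, against 25.01, 28.6, 28.1 and 23.5 CPM in the rest, above it in every library (log2 fold change 0.85 ± 0.13, adjusted p = 1.31e-05). Against the rest, 6 of 31 genes (19.4%) differed, with 25.6% of all genes called. These were 5 higher genes (Pmvk, Ebp, Fdft1, Cyp51 and Elovl1, 16.1%, where 14.6% of all genes were higher) and Ggps1, which was lower (3.23%, where 11.1% of all genes were lower).

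Ebp had 84.6, 95.2, 121 and 108 CPM in the Il17a gate and 76.02, 78.4, 81.6 and 74.04 CPM in the rest, also without overlap (log2 fold change 0.39 ± 0.09, adjusted p = 0.00232). Fdft1, which commits the route to squalene, had 53.8, 73.6, 51.4 and 58.5 CPM against 38.3, 60.7, 55.3 and 45.8 CPM in the rest, higher in 3 of 4 libraries (log2 fold change 0.35 ± 0.10, adjusted p = 0.0127). Cyp51, the lanosterol demethylase, had 118, 123, 130.4 and 101 CPM against 106, 119, 94.1 and 79.4 CPM in the rest (log2 fold change 0.27 ± 0.09, adjusted p = 0.0319). The groups overlapped for both, and library 1 of the rest exceeded library 4 of the Il17a gate for Cyp51. Elovl1, which makes very long saturated chains, had 59.2, 64.7, 77.04 and 66.7 CPM against 51.6, 59.5, 55.8 and 45.2 CPM in the rest (log2 fold change 0.34 ± 0.09, adjusted p = 0.00786). Ggps1 had 48.4, 50.8, 37.5 and 45.1 CPM in the Il17a gate, below every library of the rest at 57.4, 57.3, 60.1 and 61.8 CPM (log2 fold change -0.29 ± 0.10, adjusted p = 0.0358). The median log2 fold change of the 20 sterol genes was 0.19, against -0.03 over all genes.

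The Il17a gate was the smallest and deepest and had the highest share of cycling cells: all 7 cycling markers were found, summing to 685 to 1355 CPM over its libraries and 216 to 314 CPM in the rest. Without cycling cells 1 of the 6 calls was left (Pmvk), and none was left by edgeR among cells of 3000 to 6000 UMIs (4 genes at an unadjusted p under 0.05) or with every cell thinned to 2000 UMIs (5 genes). Without cells carrying other types' markers 0 was left as well (5 genes). Calls over all genes dropped too, to 981, 541, 663 and 992 in these 4 settings, against 2466. The list of other types' markers took away 36.8% of the Il17a gate. A shorter list without Cst3, Epcam, Pecam1 and Jchain, chosen after seeing the data, took away 0.661%, and 5 of the 6 calls were left (Ggps1 was lost). Pmvk and Ebp stayed called with each library left out, while 3 genes were called without library 1 and 2 without library 4. Fdft1 lost its call without library 1 or 4, Cyp51 without library 1, 3 or 4, Ggps1 without library 1, 3 or 4 and Elovl1 without library 4.

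Cells with Ifng, the Th1 cytokine, were higher in 7 of the 20 sterol genes. Fdft1 stood at 48.3, 80.6, 72.3 and 65.4 CPM in the Ifng gate of libraries 1 to 4, against 38.3, 60.7, 55.3 and 45.8 CPM in the rest, and was higher in each library although the libraries differed more than the gates (log2 fold change 0.39 ± 0.06, adjusted p = 5.78e-05). Against the rest, 8 of 31 genes (25.8%) differed (9.6% of all genes called), all of them higher (4.33% of all genes were higher and 5.27% lower). They were 7 sterol genes (Fdft1, Idi1, Fdps, Pmvk, Stard4, Lss and Acat2) and Srebf2. Other steps between mevalonate and lanosterol did not pass: Mvk (adjusted p = 0.683), the decarboxylase Mvd (adjusted p = 0.0699) and squalene epoxidase Sqle (adjusted p = 0.0574). None of the 8 fatty acid genes tested passed; 3 of them had an unadjusted p under 0.05.

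Idi1, which isomerises the first isoprenoid unit, had 56.5, 83.8, 64.5 and 64.8 CPM in the Ifng gate and 48.9, 60.3, 55.1 and 42.98 CPM in the rest (log2 fold change 0.35 ± 0.07, adjusted p = 0.000908). Fdps had 35.8, 61.8, 43.2 and 37.2 CPM against 30.9, 38.7, 37.8 and 26.7 CPM (log2 fold change 0.37 ± 0.08, adjusted p = 0.00149), and library 2 was the highest in both gates. Pmvk had 34.9, 35.2, 32.9 and 31.3 CPM in the Ifng gate, above every library of the rest at 25.01, 28.6, 28.1 and 23.5 CPM (log2 fold change 0.33 ± 0.08, adjusted p = 0.0062). Stard4, a carrier of cholesterol between membranes, had 51.8, 52.7, 46.9 and 39.2 CPM against 41.5, 45.97, 40.5 and 33.3 CPM (log2 fold change 0.21 ± 0.05, adjusted p = 0.0076). Lss, lanosterol synthase, had 13.6, 24.1, 20.2 and 16.8 CPM against 11.8, 14.5, 13.7 and 15.8 CPM (log2 fold change 0.38 ± 0.11, adjusted p = 0.0256). For Idi1, Fdps, Stard4 and Lss the gate was higher in each library while the ranges over libraries overlapped. The thiolase Acat2 and Srebf2 were higher by log2 fold changes of 0.31 and 0.19 (adjusted p = 0.0293 and 0.0373). Over the 20 sterol genes the log2 fold change was positive for 19, with a median of 0.20 against -0.01 over all genes.

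Fdft1 and Idi1 stayed called with each library left out, and 5 genes were called without library 1, 5 without library 2 and 5 without library 3. Acat2 and Srebf2 lost their call with any 1 library left out, Pmvk and Stard4 without library 1, Fdps without library 2 and Lss without library 2 or 3. With no library block in the model, edgeR called 0 of the 31, of which 8 had an unadjusted p under 0.05. The 7 cycling markers summed to 334 to 510 CPM in the Ifng gate and to 216 to 314 CPM in the rest, and without cycling cells all 8 genes kept their call and 3 more were called (Mvd, Nsdhl and Srebf1).

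Cells rich in Gzma, a granzyme of cytotoxic cells, were higher in the elongase Elovl6, in 9 sterol genes and in both SREBP genes. Elovl6 stood at 48.4, 49.5, 32.97 and 37.5 CPM in the Gzma gate of libraries 1 to 4, against 22.4, 22.1, 22.1 and 17.4 CPM in the rest, without overlap (log2 fold change 0.98 ± 0.14, adjusted p = 7.32e-06). In all, 12 of 31 genes (38.7%) differed (15.2% of all genes called) and all 12 were higher (7.68% of all genes were higher and 7.5% lower). Elovl6 was the only fatty acid gene among them; the others were 9 sterol genes (Acat2, Hmgcs1, Mvk, Idi1, Fdps, Fdft1, Nsdhl, Dhcr7 and Stard4) with Srebf1 and Srebf2.

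Acat2, which joins acetyl-CoA units at the start of the route, had 14.1, 28.4, 23.5 and 24.6 CPM in the Gzma gate and 11.4, 18.2, 16.4 and 15.8 CPM in the rest (log2 fold change 0.53 ± 0.12, adjusted p = 0.00335). Hmgcs1, which adds the next unit, had 52.9, 82.2, 77.98 and 55.4 CPM against 49.3, 57.7, 55.5 and 44.4 CPM (log2 fold change 0.34 ± 0.10, adjusted p = 0.016), higher in 4 of 4 libraries and most in libraries 2 and 3. Mevalonate kinase Mvk had 34.9, 34.2, 20.3 and 19.01 CPM against 18.7, 20.7, 21.3 and 18.5 CPM (log2 fold change 0.44 ± 0.13, adjusted p = 0.0214), high in libraries 1 and 2 only. Idi1 had 61.9, 84.8, 65.9 and 58.2 CPM against 48.9, 60.3, 55.1 and 42.98 CPM (log2 fold change 0.36 ± 0.09, adjusted p = 0.00796). Fdft1 had 45, 79.01, 71.6 and 50.9 CPM against 38.3, 60.7, 55.3 and 45.8 CPM (log2 fold change 0.28 ± 0.08, adjusted p = 0.0224). The ranges of the gates overlapped for all 5 of these genes. The other 6 called genes had log2 fold changes between 0.20 (Srebf2) and 0.40 (Srebf1), each with an adjusted p of at least 0.0252. Lss, which was called in the Ifng gate, had 13.02 ± 0.899 CPM in the Gzma gate and 13.9 ± 1.67 CPM in the rest.

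Elovl6 and Acat2 stayed called with each library left out, but 7 genes were called without library 1, 3 without library 2 (these 2 genes and Nsdhl), 6 without library 3 and 8 without library 4. With cells thinned to 2000 UMIs 3 were called (Elovl6, Acat2 and Hmgcs1), and without library as a block 1. The 7 cycling markers summed to 355 to 842 CPM in the Gzma gate and to 216 to 314 CPM in the rest, without overlap, and without cycling cells 8 genes were called (Fdps, Hmgcs1, Nsdhl and Stard4 lost their call). Cells with a Cd8a, Cd8b1 or Trdc UMI made up 12.3% ± 7.41 of the Gzma gate and 3.16% ± 0.707 of the rest, and without them 8 genes were called (Dhcr7, Hmgcs1, Srebf1 and Srebf2 lost their call).

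The Il2 gate holds cells with a UMI of Il2, the gene of a T cell growth factor, and no UMI of Foxp3, Il17a or Ifng. No gene of either route differed there from the rest (2.21% of all genes called by edgeR, 0.426% higher and 1.79% lower). DESeq2 called 0 as well, and 0 of the 31 had an unadjusted p under 0.05. Idi1 had 58.97, 64.5, 64.8 and 47.3 CPM in the Il2 gate and 48.9, 60.3, 55.1 and 42.98 CPM in the rest (log2 fold change 0.16 ± 0.09, adjusted p = 0.479). Sc5d had 69.1, 63.9, 62.2 and 56.9 CPM against 54.96, 62.8, 58.3 and 49.8 CPM (log2 fold change 0.15 ± 0.07, adjusted p = 0.383), and Ebp had 86.2, 70.9, 73.04 and 78.05 CPM against 76.02, 78.4, 81.6 and 74.04 CPM (log2 fold change -0.02 ± 0.08, adjusted p = 0.952).

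**Figure D3:**
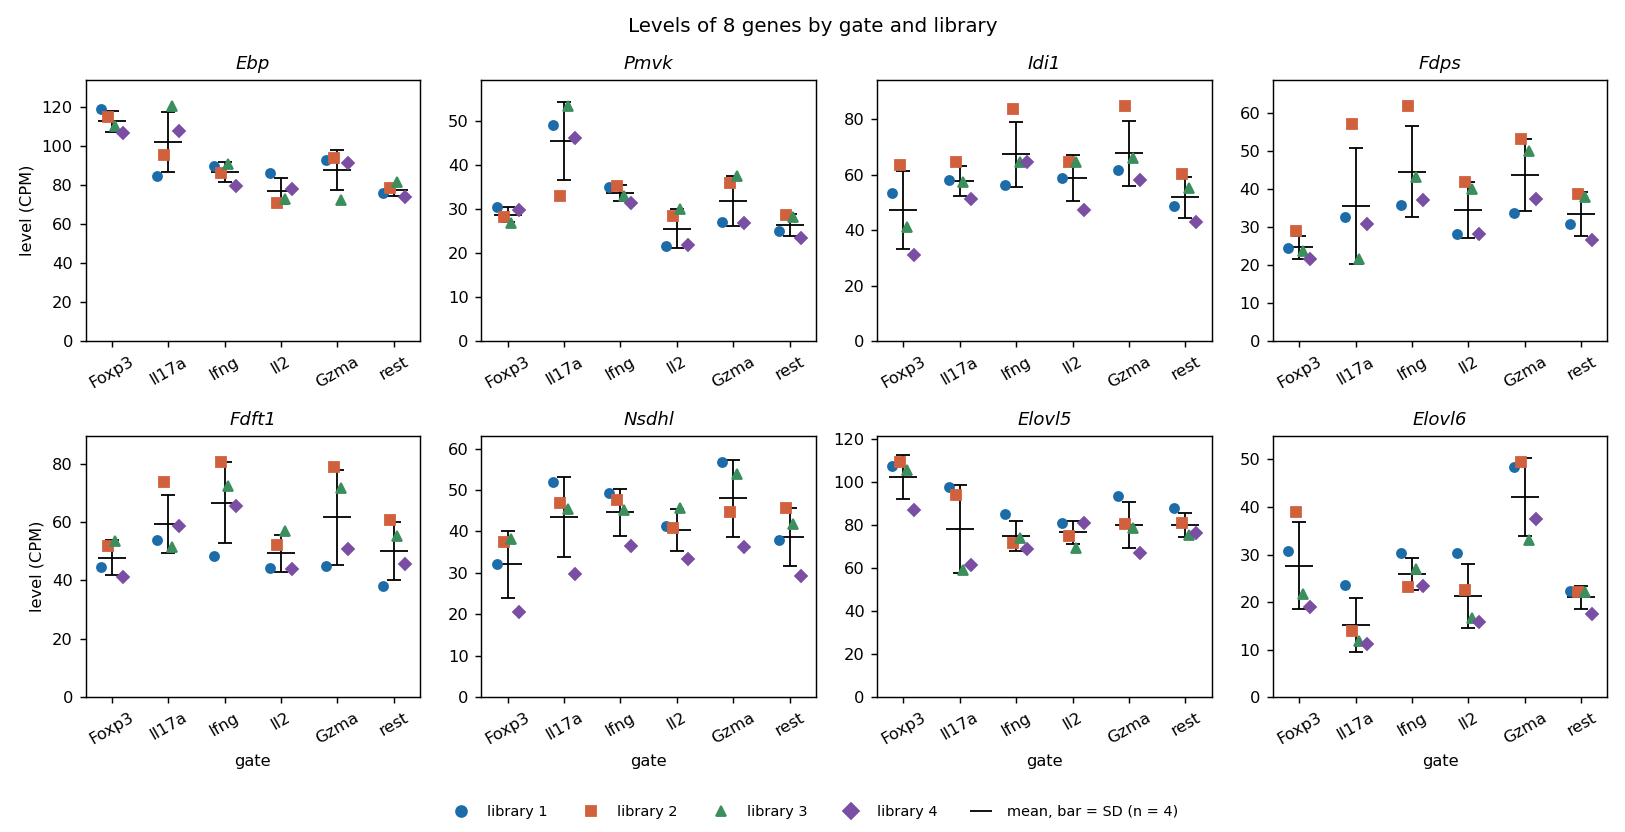
Levels in CPM (vertical axes) of 8 genes in the 6 gates (horizontal axes), with 1 point per library and mean ± SD over 4 libraries. By mean level, Ebp is highest in the Foxp3 gate, Pmvk in the Il17a gate and Elovl6 in the Gzma gate. This order holds in every library for Elovl6 but not for Ebp and Pmvk. For Idi1, Fdps and Fdft1 the libraries spread as widely as the gates.

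Set directly against each other, the Foxp3 and Il17a gates differed in 8 of 31 genes (25.8%, where 29.3% of all genes were called). The Foxp3 gate was lower in 6 (15.1% of all genes were lower) and higher in the elongases Elovl5 and Elovl6 (14.2% were higher). Pmvk had 30.4, 28.1, 26.8 and 29.8 CPM in the Foxp3 gate, below every library of the Il17a gate at 48.97, 33, 53.3 and 46.2 CPM (log2 fold change -0.70 ± 0.14, adjusted p = 0.000399). Cyp51 had 89.9, 122, 80.8 and 53.4 CPM in the Foxp3 gate and 118, 123, 130.4 and 101 CPM in the Il17a gate (log2 fold change -0.46 ± 0.10, adjusted p = 0.000922), and library 2 was almost level. Nsdhl had 32.03, 37.5, 38.1 and 20.5 CPM against 51.99, 46.96, 45.4 and 29.8 CPM (log2 fold change -0.50 ± 0.14, adjusted p = 0.00642). Fdps had 24.6, 28.9, 23.8 and 21.6 CPM against 32.6, 57.1, 21.7 and 30.8 CPM (log2 fold change -0.60 ± 0.16, adjusted p = 0.00654), a difference that turned round in library 3. Fdft1 had 44.8, 51.9, 53.5 and 41.1 CPM against 53.8, 73.6, 51.4 and 58.5 CPM (log2 fold change -0.39 ± 0.12, adjusted p = 0.0129). Elovl6 had 30.8, 39.01, 21.8 and 18.99 CPM against 23.6, 13.96, 11.9 and 11.3 CPM, higher in 4 of 4 libraries (log2 fold change 0.75 ± 0.23, adjusted p = 0.0149). Insig1 was lower by a log2 fold change of -0.28 (adjusted p = 0.0476) and Elovl5 higher by 0.33 (adjusted p = 0.0166).

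Ebp, higher than the rest in both gates, had 113 ± 5.25 CPM in the Foxp3 gate and 102 ± 15.5 CPM in the Il17a gate, a difference that did not pass the test (log2 fold change 0.17 ± 0.10, adjusted p = 0.184). Pmvk and Cyp51 stayed called with each library left out. The 6 others each lost their call without at least 1 library: Insig1 without any 1 of the 4, Fdft1 without library 1, 2 or 4, Nsdhl without library 1, Fdps and Elovl6 without library 2, and Elovl5 without library 3 or 4. With cells of 3000 to 6000 UMIs 1 gene was called, Cyp51. With cells thinned to 2000 UMIs 3 genes were called, and neither Pmvk nor Cyp51 was among them. Pmvk also lost its call without cycling cells and without cells carrying other types' markers. In these 4 settings all 8 genes kept their direction. Calls over all genes were 1310, 1120, 1793 and 1441 in the order given, against 2823.

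Between the Il17a and Ifng gates 5 of 31 genes (16.1%) differed, fewer than the 27% of all genes called. The Il17a gate was higher in Pmvk and Ebp (15.5% of all genes were higher) and lower in Msmo1, Elovl6 and Acat2 (11.6% were lower). Pmvk had 48.97, 33, 53.3 and 46.2 CPM in the Il17a gate and 34.9, 35.2, 32.9 and 31.3 CPM in the Ifng gate, with library 2 the exception (log2 fold change 0.52 ± 0.12, adjusted p = 0.00211). Ebp had 84.6, 95.2, 121 and 108 CPM against 89.7, 86.2, 90.9 and 79.6 CPM, with library 1 the exception (log2 fold change 0.25 ± 0.09, adjusted p = 0.0398). Msmo1, the methylsterol monooxygenase, had 44.7, 66, 43.5 and 42.1 CPM against 55.3, 85.7, 67.7 and 57.9 CPM (log2 fold change -0.34 ± 0.10, adjusted p = 0.0127). Elovl6 had 23.6, 13.96, 11.9 and 11.3 CPM against 30.3, 23.1, 26.9 and 23.4 CPM (log2 fold change -0.59 ± 0.21, adjusted p = 0.0397). Acat2 had 10.3, 10.2, 9.88 and 18.5 CPM against 14.1, 23.5, 18.7 and 21.5 CPM (log2 fold change -0.52 ± 0.18, adjusted p = 0.0445). These last 3 genes were lower in 4 of 4 libraries. Msmo1 stayed called with each library left out, and 3 genes were called without library 1, 3 without library 3 and 3 without library 4. Acat2 lost its call without library 1, 2 or 3, Ebp without library 2, 3 or 4, Elovl6 without library 3 or 4 and Pmvk without library 1. With edgeR 0 genes were called among cells of 3000 to 6000 UMIs (5 at an unadjusted p under 0.05) and 0 with thinned cells (5). Without cycling cells all 5 genes kept their direction and lost their call, while 2 others were called (Elovl5 and Idi1). Calls over all genes were 1310 without cycling cells, against 2603.

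A further comparison asked whether the other genes move with Insig1 from cell to cell. Rest-gate cells were thinned to 2000 UMIs each, and 1427 of 8690 then had an Insig1 UMI. Cells with an Insig1 UMI had more transcripts of the sterol route. The 20 sterol genes summed to 912, 1053, 1145 and 939.8 CPM in these cells of libraries 1 to 4, against 711, 849, 797 and 692 CPM in cells without. The fatty acid genes summed to 268, 339, 308 and 274 CPM, against 265, 278, 266 and 249 CPM in cells without. Of the 30 genes tested (Insig1 set aside), 4 differed and all were higher, with 0.397% of 9076 genes called in either direction, 0.275% higher and 0.121% lower. All 4 belong to the sterol route.

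Cyp51 had 164, 148, 116 and 122 CPM in cells with an Insig1 UMI and 98.6, 102, 87.9 and 73.4 CPM in cells without (log2 fold change 0.61 ± 0.09, adjusted p = 4.56e-05). Idi1 had 71.6, 74.9, 95.2 and 66.4 CPM against 41.4, 55.2, 44.6 and 36.2 CPM in cells without (log2 fold change 0.76 ± 0.12, adjusted p = 0.000266). Hmgcs1 had 62.96, 73.9, 109 and 68.5 CPM against 45.1, 52.8, 42.2 and 36.2 CPM in cells without (log2 fold change 0.78 ± 0.13, adjusted p = 0.000367). For each the lowest library with Insig1 lay above the highest without. Msmo1 had 64.2, 92.4, 98.6 and 70.5 CPM against 43.4, 61.7, 63.04 and 48.9 CPM in cells without, again without overlap (log2 fold change 0.59 ± 0.11, adjusted p = 0.00226). The promoters of these 4 genes were printed above because of these calls. Each had at least 1 CCAAT match, but so did 15 of the 16 sterol genes in the promoter table, Ebp and Ggps1 among them. The matches therefore do not set these 4 genes apart.

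The other 16 sterol genes were not called in this comparison. Over all 20, the 4 called ones included, 12 had an unadjusted p under 0.05, 18 had a positive log2 fold change and the median was 0.43, against 0.00 over all genes. Ebp, which led the Foxp3 gate, had 77.8, 87.3, 64.6 and 51.9 CPM in cells with an Insig1 UMI and 74.1, 72.5, 81.7 and 72.8 CPM in cells without (log2 fold change -0.03 ± 0.12, adjusted p = 0.982). Ggps1 had 51.9, 46.2, 52.7 and 82.99 CPM against 58.9, 63.3, 65.5 and 63.9 CPM (log2 fold change -0.16 ± 0.13, adjusted p = 0.852), and Elovl6 had 22.2, 28.7, 11.9 and 24.9 CPM against 26.2, 22.9, 23.5 and 21 CPM (log2 fold change -0.06 ± 0.20, adjusted p = 0.981). Among the fatty acid genes, Scd2 had 17.3, 19.5, 27.2 and 8.30 CPM against 9.58, 13.4, 11.6 and 10.1 CPM (log2 fold change 0.71 ± 0.25, adjusted p = 0.369), without passing the threshold. Srebf2, one of the factors that act on these genes, had 144, 156, 129 and 102 CPM against 119, 127, 116 and 110.5 CPM (log2 fold change 0.20 ± 0.09, adjusted p = 0.58). Msmo1 lost its call without library 2. The same split over the cells of all gates called 12 genes, a split by Hmgcs1 in place of Insig1 called 7, and DESeq2 called 2. Free RNA was not measured in these matrices.

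**Figure D4:**
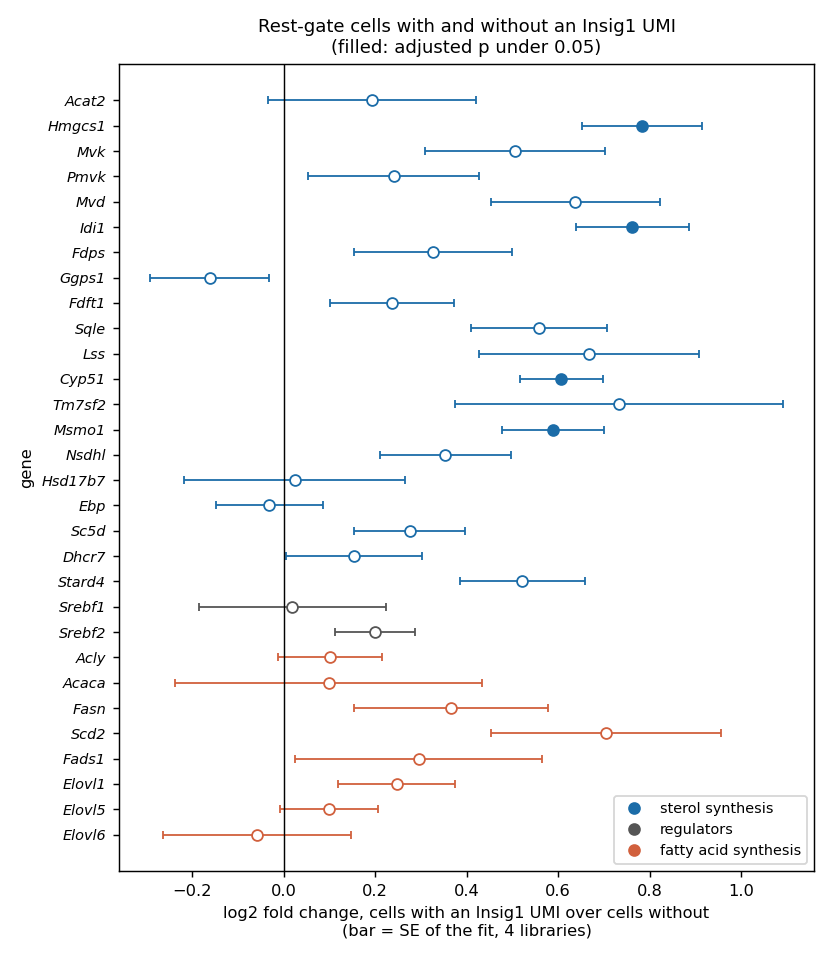
Log2 fold change (horizontal axis) of 30 genes (rows) between rest-gate cells with and without an Insig1 UMI, each cell thinned to 2000 UMIs, with bars of 1 SE from the fit over 4 libraries. Filled points (Hmgcs1, Idi1, Cyp51 and Msmo1) had an adjusted p under 0.05; most sterol genes lie right of 0, and Ebp, Ggps1 and Elovl6 lie at or left of it.

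Genes beside these routes were read from lists chosen with earlier results of these data known. Acat1, the mitochondrial thiolase of ketone body and isoleucine metabolism, and Lbr, a sterol reductase, were both lower in the Foxp3 gate. Acat1 had 30.4, 33.9, 32.2 and 46.7 CPM there and 58.5, 64.9, 60.1 and 63.8 CPM in the rest (log2 fold change -0.78 ± 0.09, adjusted p = 2.17e-07), and Lbr had 139 ± 5.01 CPM against 158 ± 5.01 CPM in the rest (log2 fold change -0.17 ± 0.06, adjusted p = 0.0417). Of 7 genes of sterol sensing, 6 were tested and 1 differed across the gates, where 51.3% of all genes did: Mylip, whose product removes lipoprotein receptors, had 28.6 ± 5.45 CPM in the Ifng gate and 20.4 ± 4.25 CPM in the rest (log2 fold change 0.46 ± 0.10, adjusted p = 0.00154). Of 8 genes of sterol export, storage and transport, 6 were tested and 2 differed, also below that share. Npc2, which carries cholesterol out of lysosomes, had 384, 376, 402 and 373 CPM in the Foxp3 gate against 284, 258, 281 and 269 CPM in the rest (log2 fold change 0.51 ± 0.05, adjusted p = 5.37e-09). The exporter Abcg1 had 12.7 ± 3.80 CPM in the Foxp3 gate and 13.3 ± 3.84 CPM in the Gzma gate, against 7.93 ± 1.68 CPM in the rest (adjusted p = 0.00703 and 0.0167).

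The other enzymes of fatty acid synthesis and activation, of which 9 of 13 were tested, included 6 that differed across the gates, against 51.3% of all genes. Hacd3 and Tecr act with the elongases in each round of chain lengthening. Hacd3 had 172, 186, 171 and 149 CPM in the Foxp3 gate, far above the rest at 103, 98.5, 90.2 and 80.9 CPM (log2 fold change 0.88 ± 0.06, adjusted p = 2.1e-12). Tecr had 209 ± 14.6 CPM in the Foxp3 gate and 208 ± 26.3 CPM in the Il17a gate, against 176 ± 4.48 CPM in the rest (adjusted p = 0.000406 and 0.00235), and was lower in the Gzma gate at 150.1 ± 6.07 CPM (log2 fold change -0.26 ± 0.06, adjusted p = 0.00211). Hsd17b12, another enzyme of elongation, had 53.4 ± 0.927 CPM in the Il17a gate and 34.6 ± 2.96 CPM in the rest (log2 fold change 0.68 ± 0.12, adjusted p = 0.000102). Acsl5, which activates fatty acids, had 78.1 ± 5.24 CPM in the Il17a gate and 65.9 ± 2.05 CPM in the rest (log2 fold change 0.28 ± 0.08, adjusted p = 0.0126).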

How the data were processed

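Single-cell 5′ libraries of sorted CD4 T cells were counted by the authors; the submitters' processing notes list Cell Ranger 3.0.2 and the build mm10. The deposited values are UMI counts per gene and barcode. How counting treated overlapping genes and strands is not given in the sources used here.

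Barcodes were kept from 500 genes and 1000 UMIs upward and with no more than 10% of UMIs from mitochondrial genes (22534 of 22904 barcodes). Scrublet (scanpy 1.11.5) then removed 1033 likely doublets, at 0.8% per 1000 barcodes of a library, which left 21501 cells. UMIs were summed per library and gate, and libraries served as replicates. The 24 sums were tested with edgeR 4.0.16 (TMM, filterByExpr, glmQLFit and glmQLFTest, library as a block, 15 residual degrees of freedom), adjusted by Benjamini-Hochberg over all 9625 genes at 0.05. The genes that set the gates stayed in the library sizes and out of the tests. The 8 sums of the Insig1 comparison left 3 residual degrees of freedom. CPM carries no TMM scaling, while log2 fold changes do, and their errors are SE of the fit. DESeq2 1.42.0 was an alternative. The code was tested on simulated data.

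The genes, lists and comparisons were chosen with earlier results of these data known. In each comparison the 6 called genes with the smallest adjusted p are given by library. Other genes named without a call, and the second set of promoters, were chosen after their values were seen. From the further lists, up to 4 genes each with the smallest adjusted p across the gates were named.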

Additional observations from a re-analysis of the deposited data

Results flagged for a closer look

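In 7 of 132 groups of 4 libraries (19 named genes and 3 summed branches in each of 6 gates), 1 library stood apart from the other 3 by Dixon's criterion, which chance alone meets in about 1 of 20 groups.

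In the Il17a gate, Acat2 stood at 18.5 CPM in library 4, against 9.88 to 10.3 CPM in the others. Lss stood at 19.8 CPM in library 3 of that gate, against 13.9 to 14.4 CPM, and Msmo1 at 66.0 CPM in library 2, against 42.1 to 44.7 CPM.

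In the Foxp3 gate, Ggps1 stood at 61.1 CPM in library 4, against 46.8 to 48.6 CPM in the others, and Elovl5 at 86.7 CPM in library 4, against 105.5 to 109 CPM. In the Gzma gate, Ebp stood at 72.3 CPM in library 3, against 91.1 to 93.8 CPM in the others. In the rest, Elovl6 stood at 17.4 CPM in library 4, against 22.1 to 22.4 CPM in the others.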

How the results depend on the processing

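Of 654 values that named genes took under the alternatives, 650 kept their direction, 482 of them also past the threshold and 168 not, and 4 reversed. The reversed values were log2 fold changes near 0: Fdft1 in the Il17a gate against the rest (-0.056 with thinned cells), Ggps1 in the same comparison (0.011 with cells of 3000 to 6000 UMIs), Msmo1 between the Il17a and Ifng gates (0.020 without cells carrying other types' markers) and Ebp there (-0.030 with cells of 3000 to 6000 UMIs). The causes were not tested.

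The gates of a library come from the same cells' preparation, and same-library sums deviated together (60 pairs, correlations 0.00715 to 0.533, median 0.187), so library was a block. With no replicate block, the counts of called genes became 8 across the gates, 2 for the Foxp3 gate, 4 for Il17a, 0 for Ifng and 1 for Gzma against the rest, 1 for Foxp3 against Il17a, 2 for Il17a against Ifng and 0 for the Insig1 comparison (8 and 12 genes at an unadjusted p under 0.05 in the 2 edgeR counts of 0).

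With each library left out in turn, the counts ranged from 14 to 19 across the gates, 5 to 7 for the Foxp3 gate, 2 to 6 for Il17a, 5 to 7 for Ifng and 3 to 8 for Gzma against the rest, 6 for Foxp3 against Il17a, 3 to 4 for Il17a against Ifng and 3 to 5 for the Insig1 comparison. With cells thinned to 2000 UMIs the counts were 12 across the gates, 0 for Il17a, 4 for Ifng and 3 for Gzma against the rest, 3 for Foxp3 against Il17a and 0 for Il17a against Ifng (5 and 5 genes at an unadjusted p under 0.05 in the edgeR counts of 0). With cells of 3000 to 6000 UMIs they were 0 for Il17a and 7 for Gzma against the rest, 1 for Foxp3 against Il17a and 0 for Il17a against Ifng (4 and 5 likewise). Without cycling cells they were 1 for Il17a against the rest, 5 for Foxp3 against Il17a and 2 for Il17a against Ifng (Elovl5 and Idi1, neither called in the main fit). Without cells carrying 2 or more UMIs of other types' markers they were 0 for Il17a against the rest, 5 for Foxp3 against Il17a and 0 for Il17a against Ifng (5 and 6 genes at an unadjusted p under 0.05). That list removed 51.6% of the Foxp3 gate, 36.8% of Il17a, 18.8% of Ifng, 19.8% of Il2, 16.4% of Gzma and 18.3% of the rest. The 6 epithelial markers summed to 92.5 CPM in the Foxp3 gate, 3.40 CPM in the Il17a gate and 19.8 CPM in the rest. The listed markers Cst3, Epcam, Pecam1 and Jchain occurred in every gate. A shorter list without these 4, chosen after seeing the data, gave 6, 5, 11 and 12 genes for the Foxp3, Il17a, Ifng and Gzma gates against the rest. It removed 1.01% of the Foxp3 gate, 0.661% of Il17a, 0.955% of Ifng, 0.859% of Il2, 0.219% of Gzma and 0.721% of the rest. With no filter on low counts the counts were 3 for Il17a and 7 for Gzma against the rest. Gates at 2 or more UMIs gave 2, and leaving out Cd8a, Cd8b1 or Trdc cells gave 3, for Il17a against Ifng. The Insig1 comparison called 2 genes with DESeq2, 12 over all gates, 7 split by Hmgcs1 and 13 without thinning.

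The summed sterol level of the Il17a gate fell from 887 to 801 CPM among cells of 3000 to 6000 UMIs. Its ratio to the rest at that depth is not given here. The summed fatty acid level of the Il2 gate became 261 CPM with gates at 2 or more UMIs. Scaling by library size alone moved the share of all calls that were higher to 57.1% against 45.1% for Ifng against the rest, and to 42.9% against 57.3% for Il17a against Ifng, and DESeq2 moved it to 40% (5 calls) against 69.4% (36 calls) for the Insig1 comparison.

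Gates rest on single transcripts, and a cell with no UMI of a gate's gene was not shown to lack its transcript. The Il17a gate was the smallest, with 586 cells, and 4 libraries limit every comparison. Levels are relative to the UMIs of a gate, so a difference in the total RNA of cells was not measured.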

Other observations

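Of 10 genes that burn or take up fatty acids 8 were tested, and 5 differed across the gates (62.5%, where 51.3% of all genes differed). Fabp5, a fatty acid binding protein, had 152, 96.5, 130.4 and 129 CPM in the Il17a gate of libraries 1 to 4, against 71.8, 49.3, 50.5 and 44 CPM in the rest, without overlap (log2 fold change 1.29 ± 0.13, adjusted p = 4.99e-08). Acadl, an enzyme of mitochondrial fatty acid oxidation, had 147, 168, 173 and 145 CPM in the Gzma gate against 103, 112, 112 and 102 CPM in the rest, also without overlap (log2 fold change 0.54 ± 0.06, adjusted p = 9.59e-08). Hadha, a subunit of the trifunctional protein of the same pathway, had 91.8 ± 10.1 CPM in the Il17a gate and 75.3 ± 1.57 CPM in the rest (log2 fold change 0.36 ± 0.09, adjusted p = 0.00401), and Acadvl had 53.1 ± 5.53 CPM in the Foxp3 gate and 45.5 ± 3.17 CPM in the rest (log2 fold change 0.24 ± 0.07, adjusted p = 0.00769).

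Of 7 genes that use farnesyl and geranylgeranyl units, all 7 were tested and 3 differed across the gates (42.9%, where 51.3% of all genes differed). Rabggtb, a subunit of the enzyme that anchors Rab proteins, had 65.9, 79.96, 71.1 and 67.7 CPM in the Il17a gate against 56.8, 46.8, 53.4 and 54.1 CPM in the rest (log2 fold change 0.44 ± 0.10, adjusted p = 0.00208). Coq2, which attaches the side chain of ubiquinone, was lower in the Foxp3 gate at 37.4 ± 4.24 CPM and in the Il17a gate at 35.4 ± 5.90 CPM, against 46.9 ± 1.71 CPM in the rest (adjusted p = 0.00986 and 0.0204). Fntb differed across the gates (adjusted p = 0.0345).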
